A study of Mus musculus with 8 samples.

Results

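The complement components and receptors described here were 9 named genes of the 20340 listed in the files: C1qa, C1qb, C1qc, C4b, C3, Cfb and Cfp, which encode components, and C3ar1 and C5ar1, which encode receptors. They were chosen by name and not by a measured value, though with earlier results of these data known. Each was found in all 8 count tables. They were followed across cell types named from marker genes, between the hemispheres, between the labelled genotypes and between the times.

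Complement is a chain of blood and tissue proteins that tags cells and debris for uptake and calls in leukocytes. In the classical pathway C1q, assembled from the products of C1qa, C1qb and C1qc, binds a surface and leads to the cleavage of C4 and then of C3. The alternative pathway uses factor B, the product of Cfb, and is held in its active form by properdin, the product of Cfp. The fragments C3a and C5a act on the receptors encoded by C3ar1 and C5ar1. In the brain, microglia are the known main source of C1q, and complement takes part in the removal of synapses and in the response to stroke.

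Single cells were profiled from the brains of C57BL/6J males, 8 to 9 weeks old, after transient middle cerebral artery occlusion, in which the vessel is blocked for 60 min under isoflurane and then reopened. The 8 libraries were 1 for each combination of ipsilateral (occluded side) or contralateral hemisphere, Prdx1-/- or WT (Prdx1+/+) label, and 48 h or 24 h. Prdx1-/- mice lack peroxiredoxin 1, an enzyme that removes hydrogen peroxide. All animals were operated on, so the contralateral hemispheres are not those of healthy mice. After cold perfusion the tissue was dissociated by enzymes, myelin was removed by Percoll and live cells were sorted. How many mice gave each library is not given in the sources used here, and no combination had a second library. Each factor was therefore tested over 4 libraries against 4, and p-values measure the spread between these libraries, not between animals.

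The 38025 cells analysed came to 4019 to 5441 per library, with a median of 7184 to 12950 UMIs (unique molecular identifiers, the molecules counted) per cell. Of 39407 distinct barcodes, 201 occurred in more than 1 library. Of 28 clusters 22 were named by class from marker genes, and each name carries "-like" since it rests on those markers alone. Prdx1 followed the label only in part at 24 h: in microglia-like cells it was at 5.55 and 6.00 CPM (counts per 1000000 UMIs) in the ipsilateral and contralateral libraries labelled Prdx1-/- at 48 h but at 144 and 88.6 CPM in those at 24 h, against 247 to 419 CPM in the 4 libraries labelled WT. In the ipsilateral libraries at 24 h Prdx1 was at 2632 CPM under the Prdx1-/- label and 1137 CPM under the WT label in a cluster led by Mmp12 and Spp1, at 30.7 and 26.7 CPM in neutrophil-like cells and at 435 and 499 CPM over all cells. Contralaterally at 24 h it was at 103 and 277 CPM over all cells under the Prdx1-/- and WT labels. Monocyte/macrophage-like cells there held 263 and 617 CPM. Genotype is therefore given throughout as the label of the library. The cluster led by Mmp12 and Spp1 held 1118 cells of the ipsilateral library labelled WT at 24 h and 383 of that labelled Prdx1-/-, and carried 11 of the 12 microglia markers, but its marker score was too close to the next class for a name and it is described apart.

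The 3 C1q genes are neighbours on chromosome 4 (GRCm38.p6, RefSeq positions): C1qb lies at chr4:136880126-136886200, C1qc at chr4:136889801-136892936 and C1qa at chr4:136895916-136898844. C4b (chr17:34728139-34743902) and Cfb (chr17:34856374-34862514) share a stretch of chromosome 17 with C2, which begins directly beyond Cfb. C3 lies apart on the same chromosome at chr17:57203967-57228136. C3ar1 is at chr6:122847140-122856157, C5ar1 at chr7:16246743-16259540 and Cfp at chrX:20925454-20931555. All are protein-coding genes. C4b has a near-identical neighbour, C4a, annotated as a transcribed pseudogene and not analysed here, so reads of the pair may be mixed in the C4b values.

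The RefSeq promoter table held 6 of the 9 genes, with 250 bases before and 50 after each start. Promoters of C1qb and C1qc are shown because these neighbours had almost the same pattern over cell classes, and that of C3 because it was high in classes where C1q was low. Each is on the minus strand and is written 5′ to 3′, and capitals mark matches to GAGGAA (PU.1-type), TTGCNNAA (C/EBP-type) or the NF-kB-type motif on either strand, none of which overlap here. The positions are chr4:136886151-136886450 for C1qb, chr4:136892865-136893164 for C1qc and chr17:57228087-57228386 for C3.
C1qb: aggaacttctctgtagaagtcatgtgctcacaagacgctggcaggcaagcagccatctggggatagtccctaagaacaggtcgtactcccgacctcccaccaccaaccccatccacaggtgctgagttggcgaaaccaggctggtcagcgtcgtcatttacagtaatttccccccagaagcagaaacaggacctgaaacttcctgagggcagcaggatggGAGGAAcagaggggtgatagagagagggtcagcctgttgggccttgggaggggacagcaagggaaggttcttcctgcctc
C1qc: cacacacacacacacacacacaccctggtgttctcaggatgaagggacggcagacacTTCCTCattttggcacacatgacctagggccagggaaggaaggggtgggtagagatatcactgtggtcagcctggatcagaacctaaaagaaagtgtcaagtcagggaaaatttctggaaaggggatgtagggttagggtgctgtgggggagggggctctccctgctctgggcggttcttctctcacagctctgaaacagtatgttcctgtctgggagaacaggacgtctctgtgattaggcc
C3: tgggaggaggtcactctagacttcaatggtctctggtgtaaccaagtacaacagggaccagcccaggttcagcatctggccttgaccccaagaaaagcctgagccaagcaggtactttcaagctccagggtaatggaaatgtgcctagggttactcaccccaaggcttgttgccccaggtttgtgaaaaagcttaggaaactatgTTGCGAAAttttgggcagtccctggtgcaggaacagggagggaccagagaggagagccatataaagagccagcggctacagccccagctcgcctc
The C1qb and C1qc windows each held 1 match to GAGGAA, 30 and 193 bases before the start, and the C3 window held 1 match to TTGCNNAA, 45 bases before it. Of 32851 promoters of the same length, 28.3% held GAGGAA, 10.8% TTGCNNAA and 1.63% the NF-kB-type motif. The Cfp window held 2 matches to GAGGAA, the C3ar1 window 1 to the NF-kB-type motif and the C5ar1 window none. A match is a run of letters and not a binding site.

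C1q was highest in microglia-like cells and in border macrophage-like cells, the macrophages of vessels and meninges. C1qa in microglia-like cells lay between 7431 and 8289 CPM in the 4 ipsilateral libraries and between 9698 and 11640 CPM in the 4 contralateral ones. In border macrophage-like cells it was at 5667 and 6715 CPM in the 2 ipsilateral libraries with at least 20 such cells and at 7807 to 7972 CPM in the contralateral ones. The cluster led by Mmp12 and Spp1 carried less, 3660 to 4012 CPM in the ipsilateral libraries, and did not overlap the ipsilateral microglia-like range. Monocyte/macrophage-like cells, which enter from blood, held 303 to 607 CPM ipsilaterally and 721 to 1333 CPM contralaterally. Some small classes also held much C1qa: erythrocyte-like cells had 685 to 3440 CPM in the 3 ipsilateral and 4060 and 4837 CPM in the 2 contralateral libraries with at least 20 of them. Endothelial-like cells, 9 to 17 a library, reached 3860 CPM ipsilaterally and 6967 CPM contralaterally. Whether these UMIs are background was not tested. All these levels are a description with no test, since the classes come from the same cells.

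**Figure D1:**
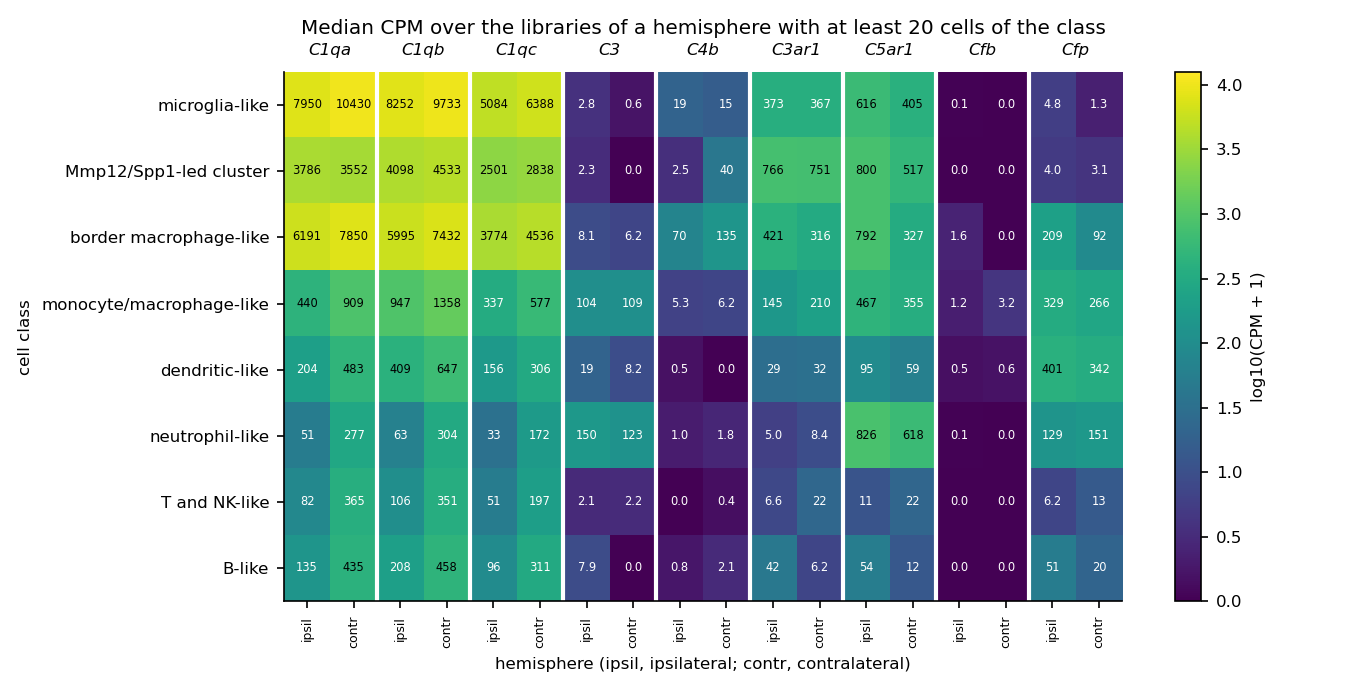
Each square gives the median CPM of 1 gene (columns, with the ipsilateral value left of the contralateral one) in 1 cell class (rows), over the libraries of that hemisphere with at least 20 cells of the class, coloured by log10(CPM + 1). On the ipsilateral side C1qa, C1qb and C1qc are highest in the upper 3 rows. On each side C3 and Cfp are near 0 in microglia-like cells and above 100 CPM in the monocyte/macrophage-like and neutrophil-like rows.

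C1q UMIs outside these classes were judged against T and NK-like cells, which are not known to make C1q. After each cell was thinned to 3000 UMIs, 99.8 to 100% of microglia-like cells held a C1qa UMI in every library. In T and NK-like cells, of a median of 5648 to 6130 UMIs, the share was 4.46 to 14.6% ipsilaterally and 23.8 to 44.2% contralaterally. Neutrophil-like cells, of a median of 3473 to 6909 UMIs, had 6.25 to 19.9% ipsilaterally and 28.4 to 34.8% contralaterally, which overlaps the T and NK-like range. The origin of these UMIs was not tested. Monocyte/macrophage-like cells, of a median of 14392 to 16930 UMIs, had 21.8 to 29.4% ipsilaterally, above the T and NK-like range, and 40.9 to 50.4% contralaterally, which overlaps it.

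The proportions of the 3 chains in monocyte/macrophage-like cells differed from those in microglia-like and neutrophil-like cells. C1qb made up 53.2 to 57.3% of the C1q UMIs of ipsilateral monocyte/macrophage-like cells, against 37.0 to 39.8% in ipsilateral microglia-like cells and 41.9 to 43.7% in ipsilateral neutrophil-like cells. The 3 ranges do not overlap. On the contralateral side the share was 43.1 to 51.2% in monocyte/macrophage-like cells, 35.8 to 37.2% in microglia-like cells and 39.2 to 40.6% in neutrophil-like cells. The lean to C1qb was not particular to the monocyte/macrophage-like class. Dendritic-like cells held C1qa, C1qb and C1qc at 205, 385.5 and 143 CPM over the pooled ipsilateral libraries. Over the pooled contralateral ones they held 544, 693 and 331 CPM. Within the monocyte/macrophage-like class, the cluster led by Pf4 and Fabp5 held 1109 CPM of C1qa over the pooled ipsilateral libraries, that led by interferon-induced Rsad2 and Ifit3 held 638 CPM, that led by Vcan and Arg1 held 281 CPM and that led by Plac8 and Ear2 held 115 CPM.

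Microglia-like cells held most C1qa UMIs of every library, with smaller shares on the ipsilateral side. Their share was 72.6 and 63.2% in the ipsilateral libraries labelled Prdx1-/- and WT at 48 h and 83.9 and 72.6% in those at 24 h, against 93.0 to 96.8% in the contralateral libraries. Monocyte/macrophage-like cells held 17.3 and 25.7% at 48 h and 2.69 and 1.15% at 24 h in the ipsilateral libraries labelled Prdx1-/- and WT. The Mmp12 and Spp1-led cluster held 22.1% in the ipsilateral library labelled WT at 24 h, its highest share. These shares combine how many cells of a class were captured with how much RNA each held.

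**Figure D2:**
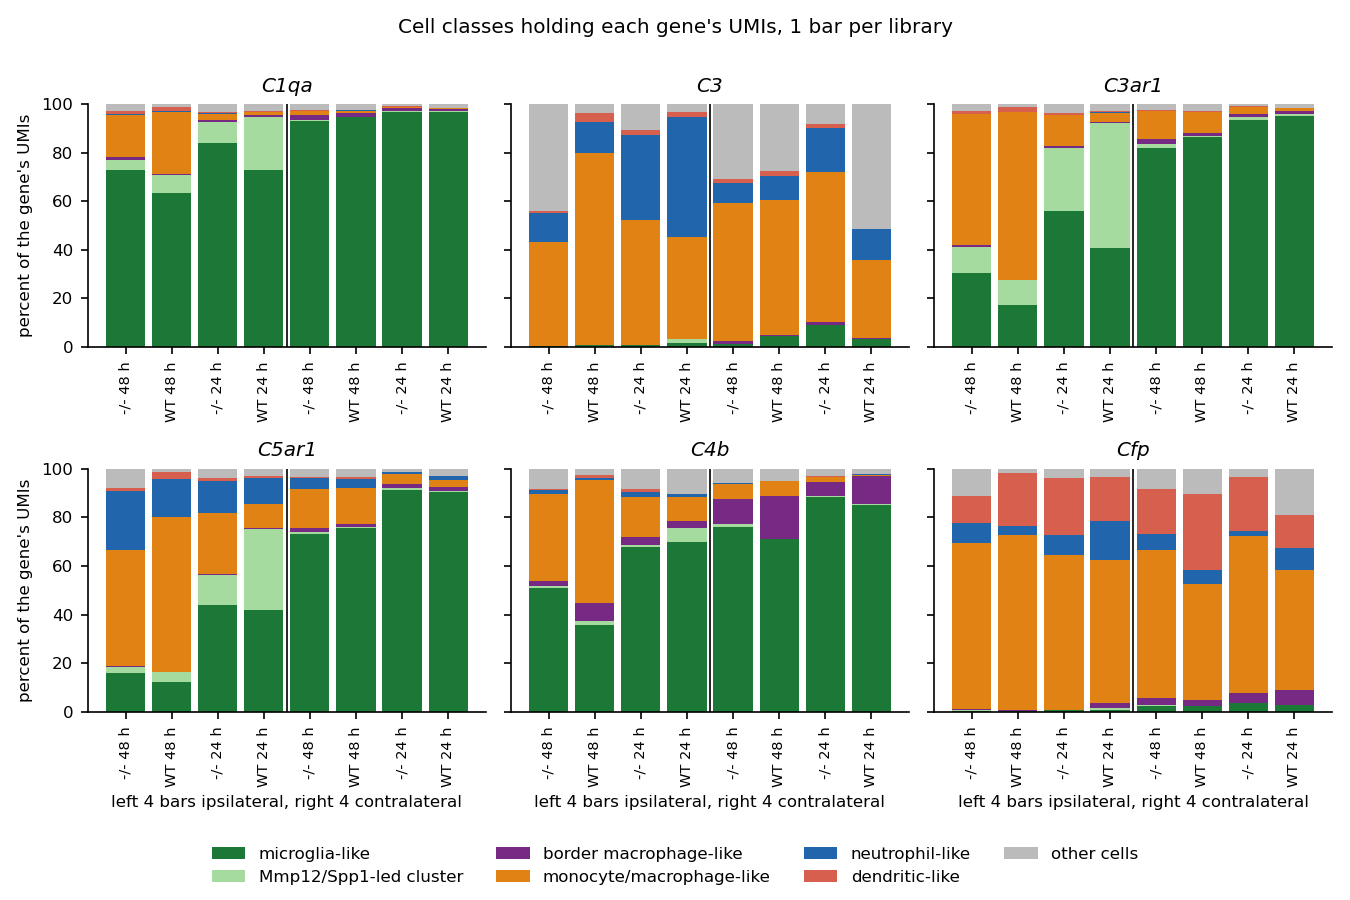
Bars split the UMIs of each gene in 1 library by the cell class that held them (percent, vertical axis), with the 4 ipsilateral libraries left of the line and the 4 contralateral ones right of it. Microglia-like cells hold 63.2 to 96.8% of C1qa UMIs, while monocyte/macrophage-like, neutrophil-like and other cells hold nearly all C3 UMIs.

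C4b, which encodes the component that C1q leads to be cleaved, was high in border macrophage-like cells, at 98.5 and 41.5 CPM in the ipsilateral libraries labelled Prdx1-/- and WT at 24 h, the 2 with at least 20 of them, and 64.5 to 181 CPM in the 4 contralateral ones. Microglia-like cells held 12.6 to 31.2 CPM ipsilaterally and 11.8 to 32.3 CPM contralaterally, from 136 to 872 UMIs a library. In the Mmp12 and Spp1-led cluster C4b lay at only 1.17 to 3.55 CPM in the 4 ipsilateral libraries, all below the ipsilateral microglia-like range. On the contralateral side only the library labelled Prdx1-/- at 48 h held at least 20 cells of this cluster. There C4b was at 40.5 CPM, above the microglia-like range, from 13 UMIs in 27 cells. Oligodendrocyte-like cells held 23.5 to 78.5 CPM in the 3 ipsilateral libraries with at least 20 of them, and 78.5 CPM in that labelled WT at 24 h was above the border macrophage-like value there. The share of microglia-like cells with a C4b UMI at 3000 UMIs was 2.68 to 7.86%, against at most 0.952% of T and NK-like cells in any library.

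C3, the protein on which the pathways meet, was high where C1q was low, in neutrophil-like and monocyte/macrophage-like cells. Neutrophil-like cells held 116 to 203 CPM ipsilaterally and 119 to 175 CPM contralaterally, and monocyte/macrophage-like cells 88.1 to 125 CPM ipsilaterally and 49.9 to 134.5 CPM contralaterally. The highest pooled ipsilateral levels among clusters of these lineages were 247 CPM in an unnamed cluster led by Elane and Ctsg, granule genes of immature neutrophils, and 242 CPM in an unnamed cluster led by Ltf and Ngp. Within the monocyte/macrophage-like class the Plac8 and Ear2-led cluster held 228 CPM, against 34.4 CPM in the Pf4 and Fabp5-led cluster where C1q was high. At 3000 UMIs, 24.4 to 35.8% of ipsilateral neutrophil-like cells and 20.6 to 26.98% of ipsilateral monocyte/macrophage-like cells held a C3 UMI. In ipsilateral microglia-like cells the share was 0.415 to 1.09%, within the range of T and NK-like cells (at most 1.54% in any library). The origin of these C3 UMIs was not tested.

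Monocyte/macrophage-like cells held 41.9 to 79.1% of the C3 UMIs of an ipsilateral library, neutrophil-like cells 11.9 to 49.6% and microglia-like cells 0.419 to 1.755%. Neutrophil-like cells held the larger share, 49.6 against 41.9%, in the ipsilateral library labelled WT at 24 h. In the ipsilateral library labelled Prdx1-/- at 48 h the unnamed clusters held 43.0% of C3 UMIs, a share not seen in the other ipsilateral libraries, where it was 1.30 to 7.54%. Contralaterally at 48 h the unnamed clusters held 478 of 1619 and 212 of 814 C3 UMIs under the Prdx1-/- and WT labels. At 24 h they held 15 of 199 and 248 of 481 there.

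Cfb, which encodes factor B, was close to the limit of detection, with 260 UMIs in all cells together. Monocyte/macrophage-like cells held 40.0 to 96.8% of the Cfb UMIs of an ipsilateral library, and 120 UMIs came from this class in the ipsilateral library labelled WT at 48 h. Its interferon-led cluster stood at 14.3 CPM ipsilaterally and 16.0 CPM contralaterally over pooled libraries, against 1.19 to 1.57 CPM and 1.53 to 2.24 CPM in the 3 other clusters of the class. Microglia-like cells held 0 to 3 Cfb UMIs a library and Cfb did not pass the filter on low counts there.

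Cfp, which encodes properdin, was highest in dendritic-like and monocyte/macrophage-like cells. Dendritic-like cells held 310 to 564 CPM ipsilaterally and 267 to 484 CPM contralaterally, and monocyte/macrophage-like cells 258 to 465 CPM ipsilaterally and 201 to 332 CPM contralaterally. Neutrophil-like cells held 116 to 182 CPM and 112 to 166 CPM on the 2 sides. In microglia-like cells Cfp was at 1.54 to 8.11 CPM ipsilaterally and 0.786 to 2.19 CPM contralaterally, and 0.296 to 1.31% of thinned cells held a UMI, no more than the 0.826 to 3.19% of T and NK-like cells.

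Of the receptors, C3ar1 was low in neutrophil-like cells, while C5ar1 was high there too. C3ar1 was highest in the Mmp12 and Spp1-led cluster, at 735 to 1096 CPM ipsilaterally, against 304 to 394 CPM in ipsilateral microglia-like cells and 99.7 to 235.5 CPM in ipsilateral monocyte/macrophage-like cells. These 3 ranges do not overlap, and neutrophil-like cells held only 2.82 to 10.1 CPM ipsilaterally. The monocyte/macrophage-like class was mixed over the pooled ipsilateral libraries. Its Rsad2 and Ifit3-led and Pf4 and Fabp5-led clusters held 387 and 308 CPM of C3ar1, inside the microglia-like range. Its Vcan and Arg1-led and Plac8 and Ear2-led clusters held 142 and 23.25 CPM. Border macrophage-like cells held 517 and 326 CPM in the ipsilateral libraries labelled Prdx1-/- and WT at 24 h. C5ar1 was at 715 to 876 CPM in ipsilateral neutrophil-like cells, 622 to 933 CPM in the Mmp12 and Spp1-led cluster, 439 to 791 CPM in microglia-like cells and 445.5 to 515 CPM in monocyte/macrophage-like cells. Ipsilateral border macrophage-like cells at 24 h held 1044 and 540 CPM of it under the Prdx1-/- and WT labels, from 26 and 24 cells. At 3000 UMIs, 83.4 to 89.1% of ipsilateral neutrophil-like cells held a C5ar1 UMI, against 0.826 to 5.11% of ipsilateral T and NK-like cells. In the ipsilateral library labelled WT at 24 h the Mmp12 and Spp1-led cluster alone held 51.4% of all C3ar1 UMIs and 33.3% of all C5ar1 UMIs.

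**Figure D3:**
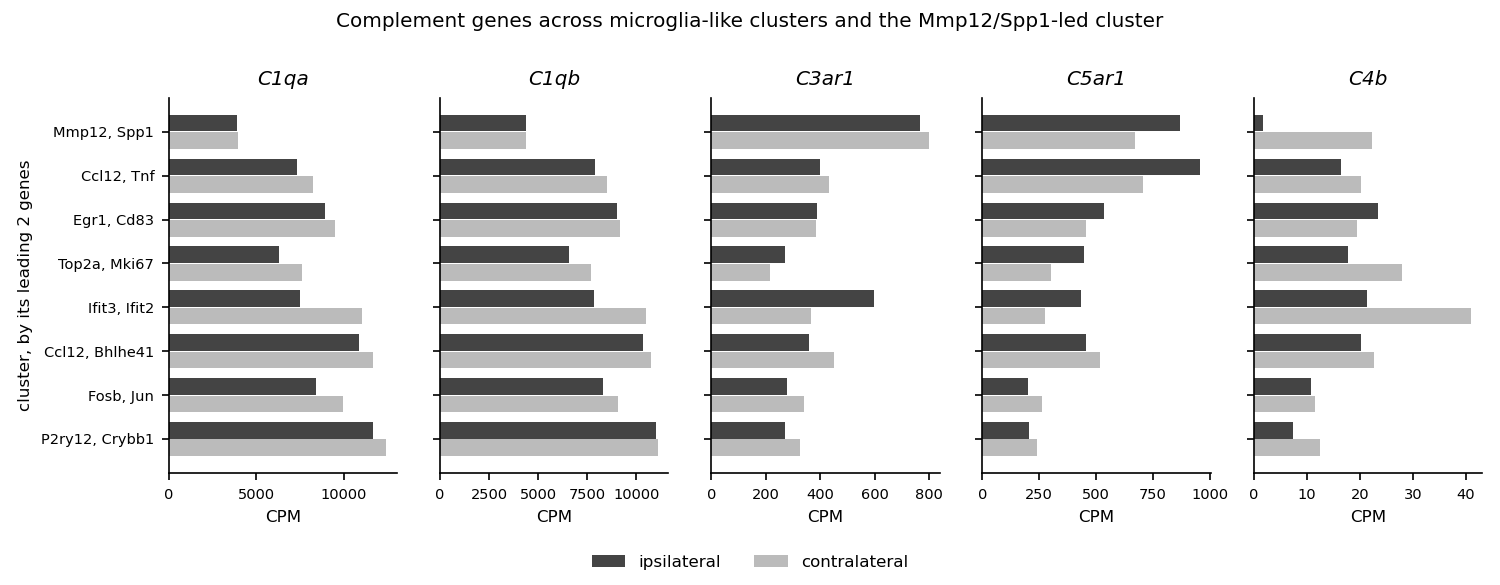
Bars give CPM summed over the 4 ipsilateral libraries (dark, above) or the 4 contralateral ones (pale, below) in each microglia-like cluster and in the Mmp12 and Spp1-led cluster, named by their leading 2 genes, with no error because libraries are pooled. C1qa runs from 3906 CPM in the ipsilateral Mmp12 and Spp1-led cluster to 12450 CPM in the contralateral P2ry12-led one, while C3ar1 and C5ar1 are higher in the Mmp12 and Spp1-led cluster and C5ar1 also in the Ccl12 and Tnf-led one.

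Microglia-like cells differed between the hemispheres in 5 of the 8 members tested there. C1qa and C1qc, chains of C1q, fell on the ipsilateral side by 0.30 and 0.23 on the log2 scale, while C3, Cfp and C5ar1 rose by 1.93, 1.85 and 0.77. The share of ipsilateral microglia-like cells with a C3 UMI was within the T and NK-like range given above. Cfp was held by no larger a share of microglia-like cells than of T and NK-like cells. C1qb, C4b and C3ar1 did not pass the test. By edgeR's quasi-likelihood F test, adjusted by Benjamini-Hochberg over all 12573 genes tested, 45.1% were called, 21.7% higher and 23.5% lower, so that 5 of 8 members is near the background. The median log2 fold change was 0.18 over the 8 members and -0.03 over all genes tested.

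C1qa in microglia-like cells was at 7431 and 7706 CPM in the ipsilateral libraries labelled Prdx1-/- and WT at 48 h and at 8194 and 8289 CPM in those at 24 h, against 10240 and 9698 CPM at 48 h and 10620 and 11640 CPM at 24 h contralaterally. All 4 ipsilateral values lay below all 4 contralateral ones, and the fitted log2 fold change was -0.30, with an SE of 0.08 (adjusted p = 0.0128). Fitted fold changes are scaled by TMM and differ from ratios of the CPM. C1qc was at 5214 and 5351 CPM ipsilaterally at 48 h and 4733 and 4954 CPM at 24 h in the libraries labelled Prdx1-/- and WT, against 6961 and 6224 CPM at 48 h and 6049 and 6552 CPM at 24 h contralaterally (log2 fold change -0.23 ± 0.08, adjusted p = 0.0355). Its ranges did not overlap either. C1qb was at 7410 to 8550 CPM ipsilaterally and 9231 to 10560 CPM contralaterally, again without overlap, but its log2 fold change of -0.16 ± 0.08 did not pass (adjusted p = 0.151). C1qa no longer passed without the contralateral library labelled Prdx1-/- at 48 h or without any 1 of the 4 ipsilateral libraries (adjusted p = 0.0547 to 0.117), and C1qc passed only when the contralateral library labelled WT at 48 h was the one left out (adjusted p = 0.0506 to 0.194 for the others). C1qc also did not pass with RLE scaling (adjusted p = 0.0735), without the filter on low counts (0.101) or with doublet-scored cells kept (0.059).

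The make-up of the microglia-like class moved with the hemisphere. The P2ry12-led cluster made up 0.641 to 9.49% of ipsilateral and 16.9 to 52.5% of contralateral microglia-like cells, and the Ccl12 and Tnf-led cluster 9.35 to 47.0% of ipsilateral and 3.80 to 11.7% of contralateral ones. Over pooled libraries C1qa was at 11710 CPM ipsilaterally and 12450 CPM contralaterally in the P2ry12-led cluster, and at 7341 and 8244 CPM in the Ccl12 and Tnf-led one. In fits of a single cluster, chosen after seeing the data, the hemisphere log2 fold change of C1qa was -0.09 in the Egr1 and Cd83-led, -0.12 in the Ccl12 and Tnf-led and -0.03 in the Ccl12 and Bhlhe41-led cluster, and none passed (adjusted p = 0.603 to 0.969). With the Mmp12 and Spp1-led cluster counted as microglia-like the C1qa difference was -0.51 (adjusted p = 0.00203), C1qb passed at -0.36 and C3ar1 at 0.36.

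C3 in microglia-like cells was at 4.13 and 3.84 CPM in the ipsilateral libraries labelled Prdx1-/- and WT at 48 h and at 1.14 and 1.80 CPM in those at 24 h, against 0.815 and 1.23 CPM at 48 h and 0.450 and 0.472 CPM at 24 h contralaterally. Each library's value came from 15 to 42 UMIs. Every ipsilateral library was above its contralateral partner, but the lowest ipsilateral value lay under the highest contralateral one (log2 fold change 1.93 ± 0.24, adjusted p = 0.00028). Cfp was at 5.84 and 8.11 CPM at 48 h and 3.79 and 1.54 CPM at 24 h in the ipsilateral libraries labelled Prdx1-/- and WT, against 2.19 and 1.43 CPM at 48 h and 1.12 and 0.786 CPM at 24 h contralaterally (1.85 ± 0.29, adjusted p = 0.00088). It too was higher in 4 of 4 pairs with overlapping ranges. By share of cells, both genes were at the levels given above as no higher than in T and NK-like cells.

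RNA of neutrophil and monocyte/macrophage marker genes moved with these differences inside the microglia-like class, and its origin was not tested. The summed neutrophil markers, of which 9 or 10 of 10 were detected in every library, were at 206 to 1014 CPM ipsilaterally and 18.6 to 141 CPM contralaterally. The summed monocyte/macrophage markers, all 10 detected, were at 182 to 515 CPM ipsilaterally and 42.2 to 192 CPM contralaterally. The 12 microglia markers were at 10390 to 15710 CPM ipsilaterally and 16690 to 25150 CPM contralaterally. Their part in the results for C3, Cfp and C1q was not tested.

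C5ar1, the receptor for C5a, was at 533 and 439 CPM in the ipsilateral microglia-like cells of the libraries labelled Prdx1-/- and WT at 48 h and at 791 and 699 CPM in those at 24 h, against 447.5 and 292 CPM at 48 h and 451 and 362 CPM at 24 h contralaterally. It was higher in 4 of 4 pairs (log2 fold change 0.77 ± 0.11, adjusted p = 0.00059), with 1 ipsilateral value under the highest contralateral ones. C5ar1 also moved with the clusters: it was at 957 CPM in ipsilateral and 707 CPM in contralateral cells of the Ccl12 and Tnf-led cluster, but at 207 and 239 CPM in the P2ry12-led one. Within single clusters its log2 fold change was 0.16, 0.36 and -0.24 in the Egr1 and Cd83-led, Ccl12 and Tnf-led and Ccl12 and Bhlhe41-led clusters, and none passed. C3ar1 was at 304 to 394 CPM ipsilaterally and 342 to 411 CPM contralaterally, with a log2 fold change of 0.07 ± 0.08 (adjusted p = 0.453).

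**Figure D4:**
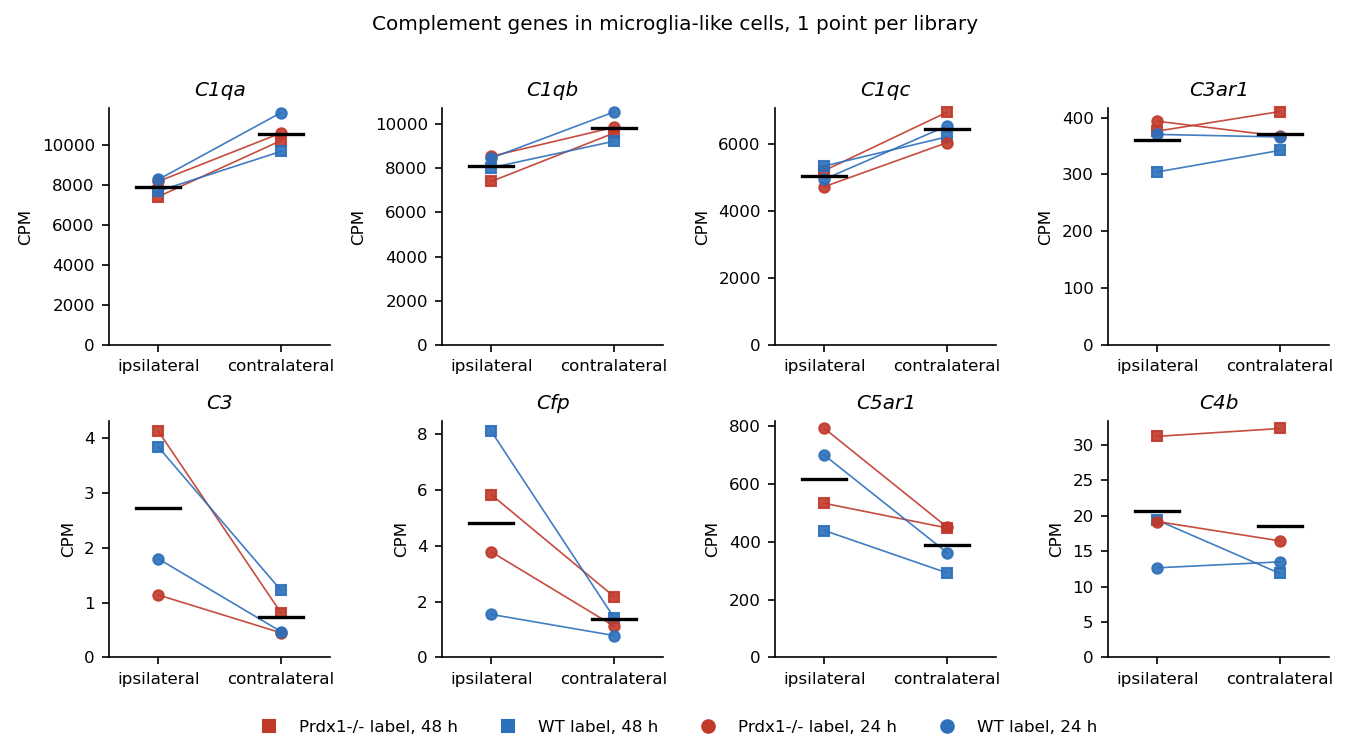
Points give CPM (vertical axes, from 0) of 8 members in the microglia-like cells of each library, ipsilateral left and contralateral right, with lines joining the libraries of 1 label and time and black bars for the mean of 4. The C1q genes lie lower and C3, Cfp and C5ar1 higher in the ipsilateral library of every pair, and C4b is highest in both libraries labelled Prdx1-/- at 48 h.

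Of the 27 genes of a wider list of complement genes tested in microglia-like cells, 7 were higher and 7 lower on the ipsilateral side and 13 did not pass (median log2 fold change 0.05, against -0.03 over all genes), a share near the 45.1% of all genes called. Besides the members, the 6 with the smallest p were Cd93, a membrane protein once named a C1q receptor, at 2.59, Vtn, which encodes the complement inhibitor vitronectin, at -2.48, Cr2, which encodes complement receptor 2, at -1.66, C1qbp, which encodes a C1q-binding protein, at 0.36, Cd46, a regulator of C3b, at -0.999, and Cr1l, another membrane regulator, at -0.24.

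Monocyte/macrophage-like cells differed between the hemispheres in 2 of 9 members, against 6.22% of the 10084 genes tested. Cfp rose by 0.43 ± 0.10 (adjusted p = 0.0378) and C5ar1 by 0.49 ± 0.13 (adjusted p = 0.0472) on the log2 scale. Cfp was at 258 and 276.5 CPM in the ipsilateral libraries labelled Prdx1-/- and WT at 48 h and at 465 and 381 CPM in those at 24 h, against 209 and 201 CPM at 48 h and 332 and 324 CPM at 24 h contralaterally. C5ar1 was at 450 and 445.5 CPM at 48 h and 515 and 484 CPM at 24 h ipsilaterally in the libraries labelled Prdx1-/- and WT, against 391.5 and 368 CPM at 48 h and 342 and 300 CPM at 24 h contralaterally. C5ar1 ranges did not overlap, while those of Cfp did, since both were set apart by time. With the 4 hemisphere pairs of libraries as a block C5ar1 did not pass (adjusted p = 0.0589), and with cells classed by their own marker score neither gene did (adjusted p = 0.176 for Cfp and 0.212 for C5ar1). Cfp passed only when the ipsilateral library labelled Prdx1-/- at 48 h was the 1 left out, and C5ar1 only without that library or without the contralateral library labelled WT at 48 h.

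C1q in monocyte/macrophage-like cells was lower on the ipsilateral side in 4 of 4 pairs without passing. C1qa was at 499 and 607 CPM in the ipsilateral libraries labelled Prdx1-/- and WT at 48 h and at 303 and 380 CPM in those at 24 h, against 721 and 775 CPM at 48 h and 1333 and 1043 CPM at 24 h contralaterally (log2 fold change -1.06 ± 0.27, adjusted p = 0.0693). Summed microglia markers in these cells were at 235 to 481 CPM ipsilaterally and 774 to 1590 CPM contralaterally, and their part in the difference was not tested. C3 showed no common direction, at 88.1 to 125 CPM ipsilaterally and 49.9 to 134.5 CPM contralaterally (0.14 ± 0.30, adjusted p = 0.831). Of the wider list Cd93 rose by 0.41 (adjusted p = 0.0357).

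Neutrophil-like cells differed between the hemispheres in 4 of the 7 members tested, against 4.96% of 7403 genes. C5ar1 rose by 0.67 ± 0.14 (adjusted p = 0.0102), at 840 and 875.5 CPM in the ipsilateral libraries labelled Prdx1-/- and WT at 48 h and at 812 and 715 CPM in those at 24 h, against 639 and 597 CPM at 48 h and 655 and 393 CPM at 24 h contralaterally. The ranges did not overlap. It did not pass without the ipsilateral library labelled Prdx1-/- at 24 h (adjusted p = 0.0651) or the contralateral library labelled WT at 24 h (adjusted p = 0.057), nor with cells classed by their own marker score (adjusted p = 0.176). C3 in these cells, at 116 to 203 CPM ipsilaterally and 119 to 175 CPM contralaterally, did not pass (0.31 ± 0.16, adjusted p = 0.352).

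The other 3 calls in neutrophil-like cells were C1qa, C1qb and C1qc, which fell, with log2 fold changes of -2.32, -2.12 and -2.27 (adjusted p = 0.0108, 0.0139 and 0.00024). C1qa was at 28.6 to 98.5 CPM ipsilaterally and 141 to 464 CPM contralaterally. By share of cells with a C1qa UMI, neutrophil-like cells overlapped T and NK-like cells, as given above, and the origin of these UMIs was not tested. The summed microglia markers of neutrophil-like cells lay at 248 to 427 CPM ipsilaterally and 485 to 1329 CPM contralaterally. C1qa and C1qb no longer passed without the contralateral library labelled WT at 24 h or that at 48 h (adjusted p = 0.053 to 0.162), and with doublet-scored cells kept none of the 3 passed (adjusted p = 0.161 to 0.237), nor did any with cells classed by their own marker score (adjusted p = 0.0555 to 0.0825). The contralateral libraries held only 41 to 257 neutrophil-like cells.

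**Figure D5:**
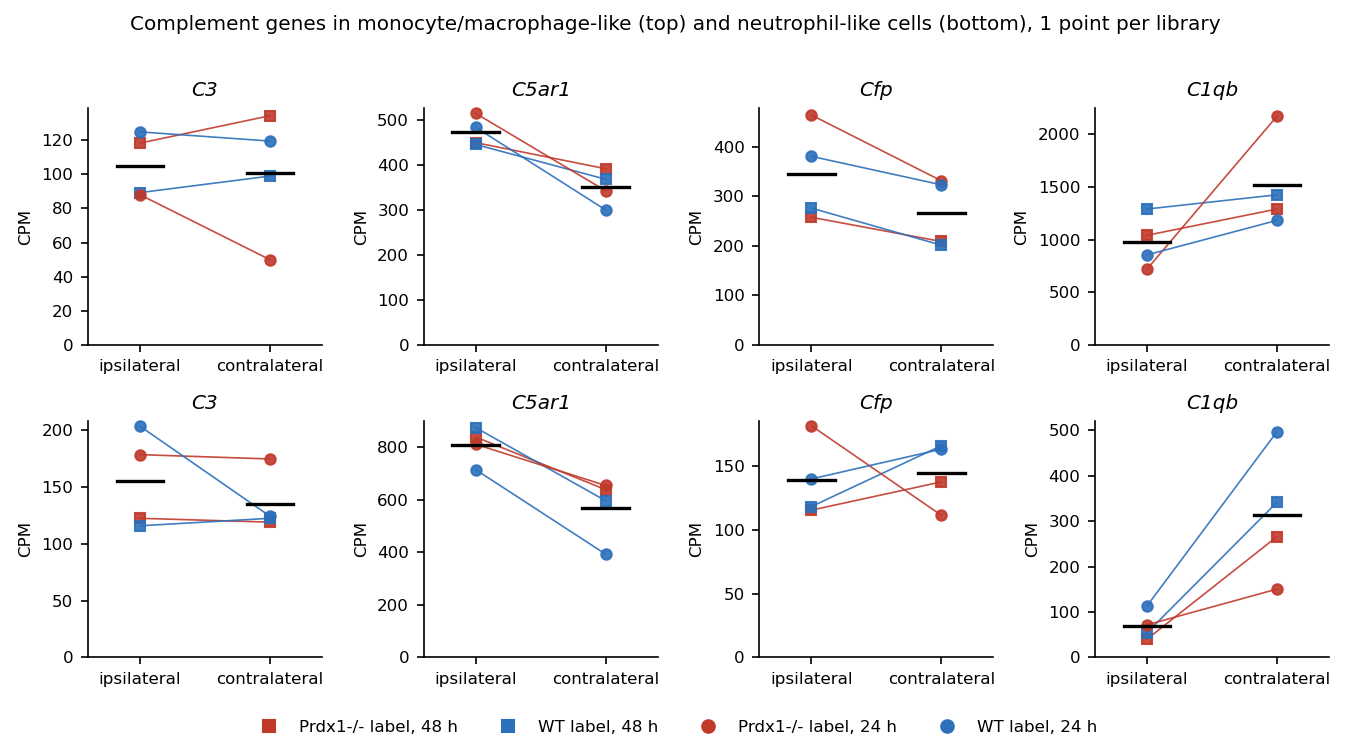
Points give CPM (vertical axes, from 0) of C3, C5ar1, Cfp and C1qb in monocyte/macrophage-like (upper row) and neutrophil-like cells (lower row) of each library, ipsilateral left and contralateral right, with lines joining libraries of 1 label and time and black bars for the mean of 4. C5ar1 is higher in the ipsilateral library of every pair in both classes, C3 has no common direction, and C1qb is lower in every ipsilateral library.

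In whole libraries, where fewer cells of a type and less RNA per cell cannot be told apart, 7 of 9 members differed between the hemispheres, against 48.5% of 14683 genes. C3 rose by 2.33 ± 0.38 (adjusted p = 0.00277), at 118 and 67.4 CPM in the ipsilateral libraries labelled Prdx1-/- and WT at 48 h and at 50.2 and 41.1 CPM in those at 24 h, against 38.4 and 19.7 CPM at 48 h and 4.40 and 12.8 CPM at 24 h contralaterally. The ranges did not overlap. Cfp rose by 2.58 ± 0.31 (88.9 to 229 CPM ipsilaterally and 22.7 to 55.5 CPM contralaterally) and C5ar1 by 0.83 ± 0.14. C1qa fell by 1.59 ± 0.22 (1222 to 4579 CPM ipsilaterally and 7053 to 10160 CPM contralaterally), C1qb by 1.28, C1qc by 1.49 and C4b by 0.82 ± 0.18 (adjusted p = 0.00906). Of the wider list Cd93, Itgax, which encodes a chain of complement receptor 4, and Itgb2 rose by 2.63, 1.52 and 0.51, and Vtn and C5ar2 fell, with log2 fold changes of -1.85 and -0.85. Monocyte/macrophage-like cells numbered 544 to 2193 in the ipsilateral and 82 to 397 in the contralateral libraries, and microglia-like cells 468 to 2002 and 2931 to 4581.

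Between 48 h and 24 h, 4 of 9 members differed in whole libraries, against 17.7% of genes: C1qa and C1qb fell at 48 h, with log2 fold changes of -0.95 and -0.80, and C3 and Cfb rose by 1.396 ± 0.37 and 2.29 ± 0.58 (adjusted p = 0.0312 to 0.045). Cfb was at 0.534 to 2.04 CPM in the 4 libraries of 48 h and 0.0796 to 0.417 CPM in those of 24 h, without overlap and from few UMIs.

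Between the times, 3 of 8 members tested differed in microglia-like cells, against 16.2% of genes. C3 rose at 48 h by 1.27 ± 0.24 (adjusted p = 0.00673) and Cfp by 1.17 ± 0.29 (adjusted p = 0.0223), from the low levels given above, with the monocyte/macrophage markers in the class at 64.2 to 515 CPM at 48 h and 42.2 to 233.5 CPM at 24 h. C5ar1 fell at 48 h by 0.42 ± 0.11 (adjusted p = 0.0293), with 292 to 533 CPM at 48 h and 362 to 791 CPM at 24 h. The Top2a and Mki67-led cluster of dividing cells made up 5.70 to 24.8% of microglia-like cells at 48 h and 0.0244 to 1.249% at 24 h. Of the wider list Cd93 rose by 1.23 and Masp1, which encodes a protease of the lectin pathway, by 0.81. C4b at 48 h against 24 h gave 0.50 ± 0.15 and stood at the threshold without passing (adjusted p = 0.0501). Cfp no longer passed without the contralateral library labelled Prdx1-/- at 48 h or the ipsilateral library labelled WT at either time (adjusted p = 0.0609 to 0.0655), and C5ar1 without any 1 of the 4 ipsilateral libraries or the contralateral library labelled WT at 48 h (adjusted p = 0.0532 to 0.124).

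In monocyte/macrophage-like cells 2 of 9 members differed between the times, against 6.20% of genes. Cfp fell at 48 h by 0.73 ± 0.10 (adjusted p = 0.00513, but 0.089 with cells classed by their own marker score). The values, given above, were 201 to 276.5 CPM in the 4 libraries of 48 h and 324 to 465 CPM in those of 24 h, without overlap. C3ar1 rose at 48 h by 0.79 ± 0.18 (adjusted p = 0.0379), at 187.5 and 235.5 CPM ipsilaterally and 228 and 228 CPM contralaterally in the libraries labelled Prdx1-/- and WT at 48 h, against 102 and 99.7 CPM ipsilaterally and 193 and 105 CPM contralaterally at 24 h. C3ar1 passed only when the contralateral library labelled Prdx1-/- at 24 h was the 1 left out, and not with cells classed by their own marker score (adjusted p = 0.217).

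In neutrophil-like cells 2 of 7 members differed between the times, against 10.8% of genes. C3 fell at 48 h by 0.89 ± 0.16 (adjusted p = 0.00422), at 122 and 116 CPM ipsilaterally and 119 and 122 CPM contralaterally in the libraries labelled Prdx1-/- and WT at 48 h, against 178 and 203 CPM ipsilaterally and 175 and 124 CPM contralaterally at 24 h. The ranges did not overlap, though the contralateral library labelled WT at 24 h stood next to those of 48 h. With cells classed by their own marker score the C3 difference was -0.36 and did not pass (adjusted p = 0.506). The median UMIs of neutrophil-like cells were 3473 to 3915 at 48 h and 4796 to 6909 at 24 h, and the part of depth was not tested. C3ar1 fell by 1.35 ± 0.34 (adjusted p = 0.0224), from only 1 to 59 UMIs a library, and did not pass without any 1 of 4 libraries (both labelled Prdx1-/- and ipsilateral, the contralateral one labelled WT at 24 h and the ipsilateral one labelled WT at 48 h) or with cells classed by their own marker score (adjusted p = 0.253). Of the wider list, Cd93 fell by 2.22, Itgam by 0.57 and Itgb2 by 0.55, the last 2 encoding the chains of complement receptor 3, and C5ar2, which encodes a second C5a receptor, rose by 0.83.

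No member passed the test between the libraries labelled Prdx1-/- and WT in any class: 0 of 8 in microglia-like cells, where 0.469% of genes were called by edgeR, 0 of 9 in monocyte/macrophage-like cells, where 0.00992% were, and 0 of 7 in neutrophil-like cells, where none was. At an unadjusted p under 0.05 the counts were 2, 0 and 2, and DESeq2 called 1, 0 and 0. In microglia-like cells DESeq2 called 121 genes higher and 220 lower of 11354 tested, and the 1 member among them was C4b. It was at 31.2 CPM in the ipsilateral library labelled Prdx1-/- and 19.3 CPM in that labelled WT at 48 h, at 32.3 and 11.8 CPM contralaterally at 48 h, at 19.2 and 12.6 CPM ipsilaterally at 24 h and at 16.4 and 13.5 CPM contralaterally at 24 h.

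C4b was thus higher in the library labelled Prdx1-/- in 4 of 4 pairs, with the widest gap at 48 h contralaterally (log2 fold change 0.75 ± 0.15, adjusted p = 0.0695). Over the 4 libraries of 48 h alone, where Prdx1 was low under the Prdx1-/- label, the difference was 1.05 (adjusted p = 0.00747). That fit had few libraries from which to estimate the spread. It called 235 genes higher and 311 lower under the Prdx1-/- label, of 12273 tested. Leaving out the contralateral library labelled WT at 24 h gave 0.90 (adjusted p = 0.0223) and that at 48 h 0.56 (adjusted p = 0.0479). Within single clusters, chosen after seeing the data, it was 0.69 in the Egr1 and Cd83-led, 0.61 in the Ccl12 and Tnf-led and 0.66 in the Ccl12 and Bhlhe41-led cluster and did not pass (adjusted p = 0.145 to 0.5). C5ar1 in microglia-like cells was also higher under the Prdx1-/- label in 4 of 4 pairs (0.35 ± 0.11, adjusted p = 0.185).

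The difference between hemispheres was not shown to depend on time or label for any member. Of the members tested, 0 passed the test of hemisphere by time in microglia-like, monocyte/macrophage-like or neutrophil-like cells, where 0.0557%, 0.208% and 0.027% of genes did, and 0 passed that of hemisphere by label, where none did in any of the 3 classes. At an unadjusted p under 0.05 the counts in these classes were 1, 3 and 4 for time and 0, 0 and 0 for label. DESeq2 called 0, 1 and 0 for time and none for label. For time in monocyte/macrophage-like cells it called 24 genes with a positive and 95 with a negative log2 fold change, of 7542 tested. The member nearest the threshold was C1qa in monocyte/macrophage-like cells, whose ipsilateral deficit was smaller at 48 h than at 24 h by 1.24 ± 0.24 on the log2 scale (adjusted p = 0.0727).

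Over 69 sums of 1 class in 1 library, from 11 classes, the genes most like each member among 5801 compared differed between components and receptors. Trem2, a lipid receptor of microglia, and Mertk, a receptor for uptake of dying cells, were among the 3 genes most like C1qa (Pearson r 0.97 and 0.96), C1qb (0.98 and 0.96) and C1qc (0.97 and 0.97), and Cx3cr1 was the next for C1qa (0.95). For C3 they were Hp, which encodes haptoglobin (0.91), Tarm1 (0.88) and Slpi, a protease inhibitor (0.88), and for Cfp Plbd1 (0.91), Sirpb1c (0.90) and Ifitm2 (0.90). Among the 3 genes most like C3ar1 were Lgmn, a lysosomal protease (0.93), and Cebpa (0.93), and C5ar1 was most like Cd14, a receptor for bacterial lipopolysaccharide (0.92), Rab20 (0.92) and Slc11a1 (0.92). C4b (Selenop 0.77, Cltc 0.74, Trf 0.72) and Cfb (Aprt 0.65, Prelid1 0.61, Arg1 0.61) had no close match. Sums of 1 library share its depth and free RNA, and these values are a description.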

How the data were processed

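The deposited files hold UMI counts per gene and cell, 1 matrix for each of the 8 libraries, which the authors made with Cell Ranger and Seurat on mm10, per the submitters' processing notes; versions are not given in the sources used here. Libraries were grouped by their labels. Barcodes under 200 genes or over 10% mitochondrial UMIs were dropped, and the cells with the highest doublet scores, 0.8% per 1000 cells of a library (1583 cells), were left out.

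Cells were clustered without the complement genes, Prdx1 or mitochondrial genes (scanpy 1.11.5 and igraph 0.11.9 in Python 3.11.15, 2000 variable genes, 30 principal components, 15 neighbours, Leiden resolution 1.0, seed 0). Clusters were named from marker lists by a scoring rule set after the clusters had been seen, so class names are rebuilt and not the authors'. Counts were summed per class and library and tested with edgeR 4.0.16 in R 4.3.3 (filterByExpr, TMM, robust quasi-likelihood F test, additive in hemisphere, genotype label and time, with 1 interaction at a time), adjusted over all genes tested at a threshold of 0.05. CPM are counts per 1000000 UMIs of the summed cells. Fold changes are ipsilateral over contralateral, labelled Prdx1-/- over WT, and 48 h over 24 h. The fit was tested on simulated data. DESeq2 1.42.0, other filters and scalings, and leaving out each library were the alternatives. Library totals were 39433266 to 70111421 UMIs; no interval covers variation between animals.

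The members and lists were chosen with earlier results of these data known. The text names all 9 members, up to 6 genes per comparison with the smallest p from a wider list of complement genes (45 of 55 names found in the files), and the 3 genes outside that list most like each member by Pearson correlation of log2(CPM + 1), among genes with a mean of at least 20 CPM over sums of at least 20 cells. Some genes that this rule names are not reported here. Figures used matplotlib 3.10.9, and other values numpy 2.4.6, pandas 2.3.3 and scipy 1.17.1.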

Additional observations from a re-analysis of the deposited data

Results flagged for a closer look

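C3 in neutrophil-like cells stood apart in 1 library: it was at 174.6 CPM in the contralateral library labelled Prdx1-/- at 24 h, against 119 to 124 CPM in the other 3 contralateral libraries. The value rests on 36 UMIs in 41 cells. Its gap to the nearest library was larger than Dixon's 95% limit for groups of 4, which chance passes in about 1 group in 20. The limit was applied to every member in the 3 tested classes on each side, where a group held at least 20 UMIs. Only this 1 group passed it, and among that many groups a pass by chance is not excluded.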

How the results depend on the processing

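Depth limits Cfb, C3 and Cfp in microglia-like cells, and the 41 to 257 contralateral neutrophil-like cells limit that class. Counts of members called are given here against the main 5 (hemisphere), 3 (time) and 0 (genotype label) in microglia-like cells, 2, 2 and 0 in monocyte/macrophage-like cells and 4, 2 and 0 in neutrophil-like cells, and 0 for hemisphere by time in each. Single microglia-like clusters, chosen after seeing the data as were the fits with the Mmp12 and Spp1-led cluster, gave 0, 0 and 0 for hemisphere and 0, 1 and 1 for time in clusters 0, 1 and 4 (led by Egr1, by Ccl12 with Tnf and by Ccl12 with Bhlhe41), and C5ar1 turned to -0.24 for hemisphere in the last. DESeq2 gave 1 for label and 5 for time in microglia-like cells, and 4 for hemisphere and 1 for hemisphere by time in monocyte/macrophage-like cells. Over all genes it called 121 higher and 220 lower of 11354 for label and 1236 and 790 of 12573 for time in microglia-like cells. In monocyte/macrophage-like cells it called 470 and 354 of 10084 for hemisphere and 24 and 95 of 7542 for hemisphere by time. Without the filter on low counts there was 1 for label in microglia-like cells, 2 for hemisphere by time in monocyte/macrophage-like cells, and 3 for label, 6 for time and 2 for hemisphere by time in neutrophil-like cells. The libraries of 48 h alone gave 1 for label in microglia-like and 1 in monocyte/macrophage-like cells. Over all genes they gave 235 higher and 311 lower of 12273, and 105 higher and 133 lower of 11224. At most 5% mitochondrial UMIs gave 1 for time in microglia-like cells. Cells classed by their own marker score gave 0 for hemisphere and 0 for time in both infiltrating classes, and doublets kept gave 1 for time in monocyte/macrophage-like and 1 for hemisphere in neutrophil-like cells. Leaving out 1 library gave 3 to 5 for hemisphere, 1 to 4 for time and 0 to 1 for label in microglia-like cells, 0 to 2, 1 to 4 and 0 in monocyte/macrophage-like cells, 1 to 4, 1 to 6 and 0 in neutrophil-like cells, and for hemisphere by time 0 to 3 in monocyte/macrophage-like and 0 to 2 in neutrophil-like cells. By replicate number, no paired analysis was possible because each group has 1 library. Hemispheres were paired by label and time instead, and with these 4 pairs as a block 1 member was called for hemisphere in monocyte/macrophage-like cells, C5ar1 being lost (adjusted p = 0.0589). In whole libraries 7 to 8 members were called for hemisphere without 1 library. For the other settings the share of all genes called is not given here, so their counts of members cannot be judged against it. The causes of these shifts were not tested.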
